A study of Homo sapiens with 17 samples.

Results

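Guides sg9 and sg3, each directed against the deubiquitinase gene USP37, were compared by RNA-seq in 786-O cells, an established human line from a clear cell renal carcinoma, in which VHL is not functional. The comparison used 6 of the 17 libraries of the series, 3 for each guide, assigned by the guide named in each library's label. Both guides were also set beside the scrambled-guide control of the USP37 experiment, which has 2 libraries, numbered 2 and 3. The USP37 guides were carried by the lentiviral vector pLenti CRISPR-V2 puro, which also encodes Cas9, and the virus was made in 293T cells. Infected cells were kept under antibiotic, polyadenylated RNA was made into unstranded TruSeq libraries, and reads were paired and 150 bases long. The sequence of each guide and where it cuts were not analysed here, since the labels do not state them, and the labels name neither clones nor separate cultures, so the p-values below measure only the spread between these libraries, which may be technical. The authors deposited variance-stabilised values with a batch correction on a scale close to log2, on which a difference of 1 is close to a 2-fold difference for well expressed genes and understates it for weakly expressed ones. The depth of the libraries is unknown.

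USP37 is a ubiquitin-specific protease that cuts ubiquitin chains from proteins and so protects its substrates from the proteasome. In renal carcinoma cells without VHL, the alpha subunit HIF2A, encoded by EPAS1, escapes the ubiquitin ligase that would mark it for destruction and drives genes of the hypoxia response. A Cas9 guide cuts at its own site in the gene and has its own set of other sites in the genome, which is why a knockout study commonly uses more than a single guide for a gene. Small insertions or deletions at a cut can end the protein and yet leave much of the mRNA in place, so the mRNA of a targeted gene is a partial check of a guide.

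USP37 mRNA was lower with each guide than with the scrambled guide, and the guides were not told apart by it. Its value was 8.43, 8.35 and 8.23 in the 3 sg3 libraries, 8.04, 8.07 and 8.30 in the 3 sg9 libraries and 9.33 and 9.15 in the 2 control libraries. All 6 guide libraries lay below both control libraries, and the ranges of the guides overlapped. Relative to the control the mean differed by −0.90 with sg3 (adjusted p = 0.000178) and by −1.10 with sg9 (adjusted p = 1.42e-05). Between the guides the difference, always given here as sg9 minus sg3, was −0.20 (SE 0.14, 95% interval −0.49 to 0.10, adjusted p = 0.304). EPAS1 mRNA stood at 11.64, 11.33 and 11.45 with sg3, 11.60, 11.30 and 11.20 with sg9 and 12.17 and 12.11 in the control. It was lower than the control with both guides, and between them it differed by −0.10 (SE 0.12, 95% interval −0.35 to 0.14, adjusted p = 0.535). No protein was measured, so the amount of USP37 or HIF2A protein left with each guide is not known from these data.

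HIF1A, ARNT, VHL, the prolyl hydroxylases and HIF1AN did not pass an adjusted p under 0.05 between the guides. ARNT2, a paralog of ARNT given below, did. HIF1A, the sister alpha subunit, differed by 0.06 (95% interval −0.16 to 0.28) and ARNT, the partner of both alpha subunits, by −0.12 (95% interval −0.33 to 0.10). VHL mRNA was 9.04, 9.29 and 9.21 with sg3 and 9.49, 9.35 and 9.39 with sg9, a difference of 0.23 (95% interval 0.03 to 0.44, adjusted p = 0.0773). The groups did not overlap for VHL, although the adjusted p missed the threshold; with the trend on transcript length described below taken out it was 0.0186. Among the prolyl hydroxylases, which mark HIF alpha subunits for VHL, EGLN1 differed by −0.11 (95% interval −0.31 to 0.08), EGLN2 by 0.29 (95% interval 0.06 to 0.52, adjusted p = 0.0535) and EGLN3 by −0.01 (95% interval −0.41 to 0.39). EGLN2 crossed the threshold when sg3 replicate 3 was left out (adjusted p = 0.0135), with library weights (0.0486) and with a stricter filter on low values (0.0496). HIF1AN, the asparagine hydroxylase of HIF, differed by −0.14 (95% interval −0.34 to 0.06). These intervals, from the deposited values, exclude differences of 1 in either direction for each of these 7 genes.

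**Figure D1:**
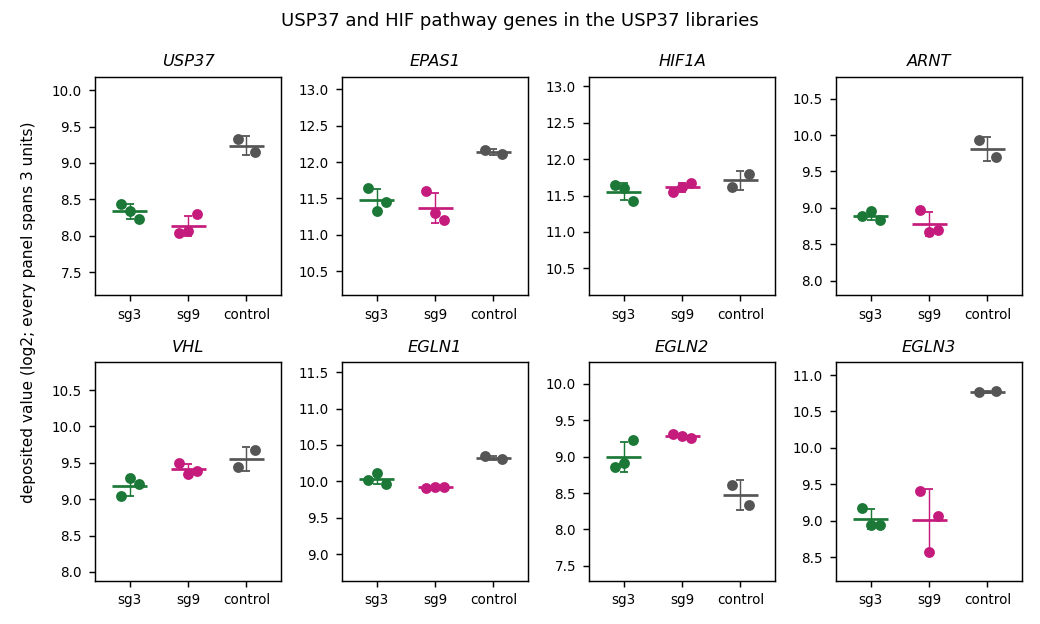
Deposited log2 values of USP37, EPAS1 and 6 further HIF pathway genes in the 3 sg3, 3 sg9 and 2 control libraries; points are libraries, bars the mean and whiskers the SD, and every panel spans 3 log2 units. USP37 and EPAS1 lie below the control with both guides, and the sg3 and sg9 points of each overlap.

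Beyond the target, the guides gave different transcriptomes. Of 12484 genes tested, 3848 (30.8%) were called between sg9 and sg3 at an adjusted p under 0.05, 2071 (16.6%) higher with sg9 and 1777 (14.2%) lower. The median size of a called difference was 0.444, and 99 called genes differed by at least 1, of which 91 were higher and 8 lower with sg9. The 3 values of sg9 and the 3 of sg3 did not overlap for 5334 genes (42.7%), and 3655 of these were called. Libraries of a single guide differed from each other by a median absolute value of 0.138 to 0.159 per gene, and libraries of different guides by 0.209 to 0.265. Across the called genes the control mean was nearer the sg3 mean for 2523 and nearer the sg9 mean for 1325. It lay between the guides for 1617, below both for 1285 and above both for 946. Set against the control, which the contrasts share, 4390 genes (35.2%) were called with sg3 and 5968 (47.8%) with sg9.

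Transcript length ordered the differences. Short transcripts were higher with sg9 and long ones lower: over 12257 genes with a length, the Spearman correlation of the difference with length was −0.55, as a description across genes of the same libraries. Among 342 genes with transcripts under 700 bases the median difference was 0.49, with 58.2% called higher and 2.05% lower. In the 3025 genes of 2000 to 3000 bases it was 0.01, with 10.8% higher and 9.26% lower. Over 6000 bases, in 1130 genes, it was −0.27, with 2.57% higher and 39.8% lower. The medians of the classes in between lay in order. Without sg9 replicate 3, the steepest library, 282 genes over 6000 bases were called lower in place of 450.

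All 3 sg9 libraries shared this slope, so leaving out any of them does not remove it. The median deviation of the shortest class minus that of the longest was 0.658, 0.688 and 0.910 in sg9 replicates 1, 2 and 3. It was −0.106, −0.157 and −0.0157 in the sg3 libraries and −0.141 and 0.0105 in the control. In the 9 libraries of the HIF2a experiment it ran from −0.680 to 0.224, and both of those values belonged to libraries of guide sg6. Against the control the correlation with length was −0.38 for sg9 and −0.01 for sg3.

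**Figure D2:**
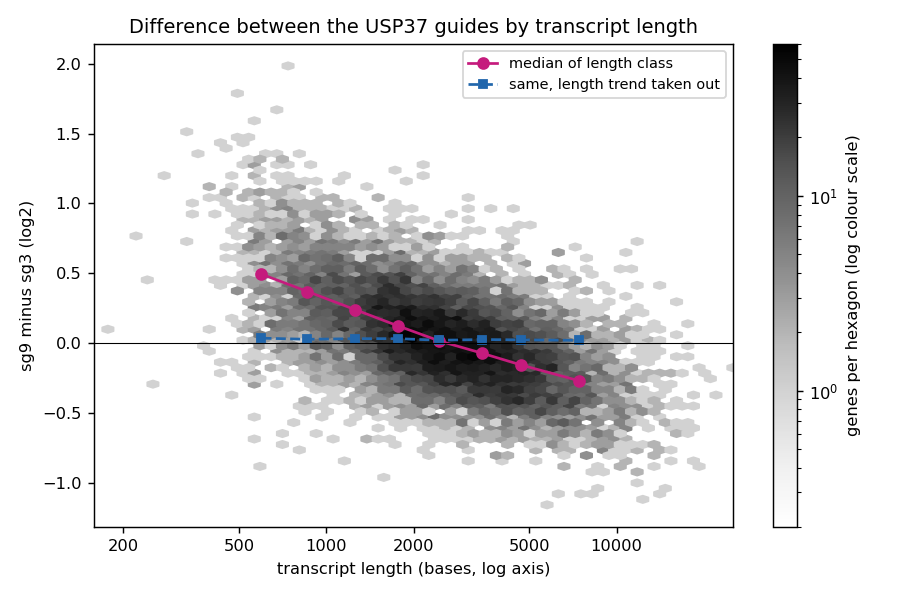
Difference sg9 minus sg3 (log2) of each gene with a transcript length against that length in bases on a log axis; grey hexagons count genes, circles join the medians of 8 length classes and squares the same medians with the length trend taken out. The circles fall from 0.49 under 700 bases to −0.27 over 6000 bases.

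**Figure D3:**
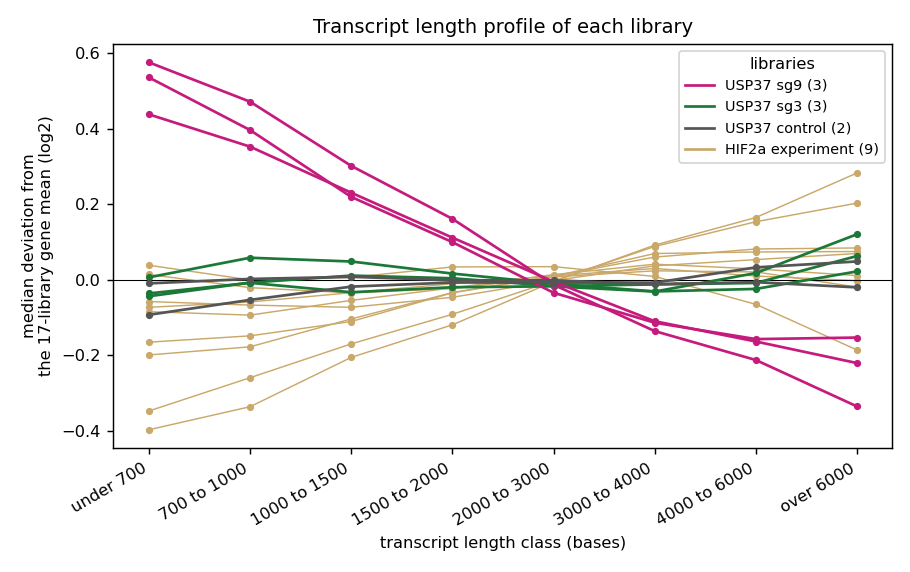
Median deviation of each of the 17 libraries from the gene means (log2) in 8 classes of transcript length, 1 line for each library. The 3 sg9 lines run from high to low, while the 3 sg3 and 2 control lines stay near 0 and the 9 lines of the HIF2a experiment slope either way.

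Because gene groups differ in length, each group below is given both as deposited and after a smooth trend of each library on log2 length had been taken out, a choice made after the data had been seen. With that trend out, 2982 of 12257 genes (24.3%) were called, 1661 (13.6%) higher and 1321 (10.8%) lower, and 24 of them differed by at least 1 in place of 99. Of 3805 called genes with a length, 2164 were still called in the same direction, and 818 genes were called only afterwards. The counts of each list below are to be read beside the shares over all genes. These were 16.6% higher and 14.2% lower as deposited, and 13.6% and 10.8% with the trend out. A list whose members are all short or all long loses part of any change of its own in that step, which is why both sets of values are given. What produced the slope was not tested.

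**Figure D4:**
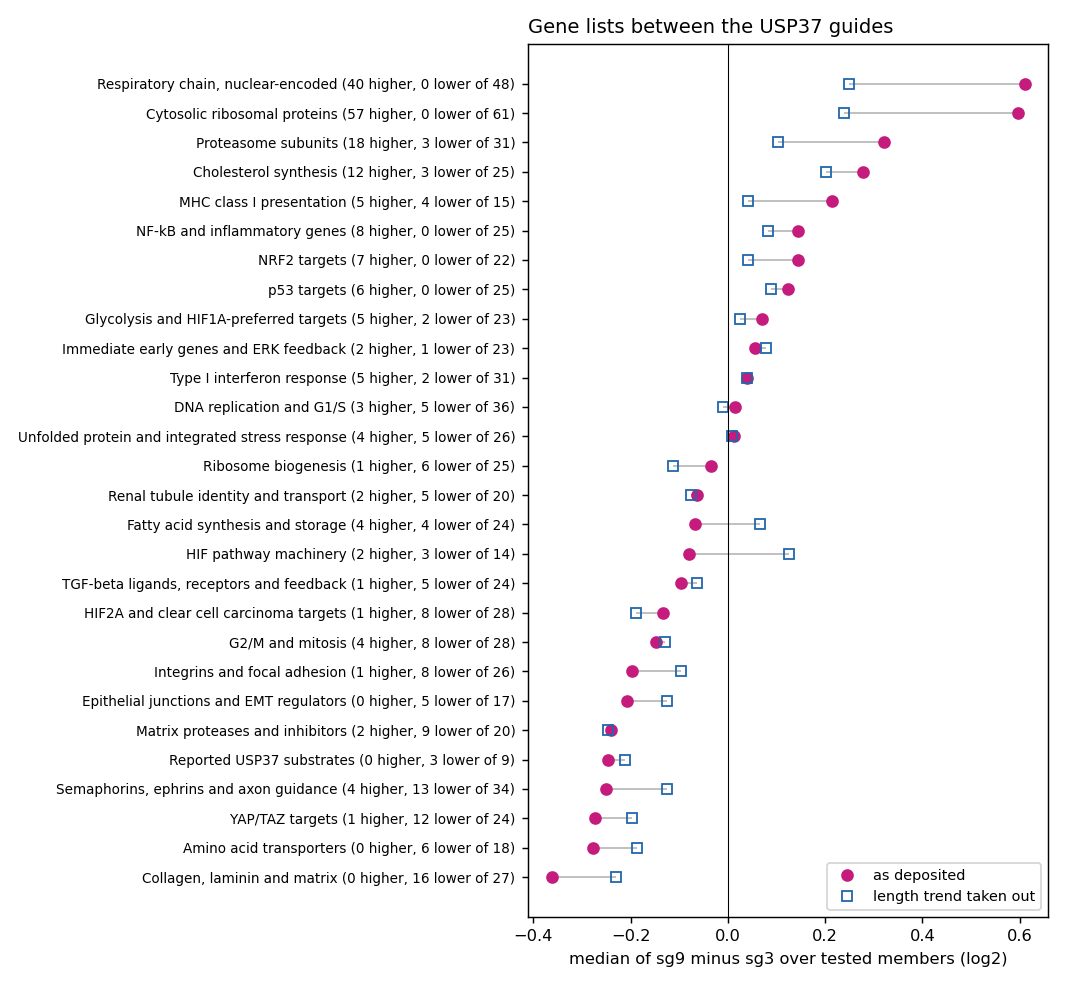
Median of sg9 minus sg3 (log2) over the tested members of 28 gene lists, with the number of members called higher and lower; filled circles are the deposited values and open squares the values with the length trend taken out. Ribosomal proteins and the respiratory chain lie farthest to the right and matrix genes farthest to the left, and most lists move towards 0 once the trend is out.

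The genes highest with sg9 relative to sg3 were mostly short. NDUFA1, a small subunit of respiratory complex I, had values of 7.91, 8.41 and 8.25 with sg3, 9.79, 10.31 and 10.42 with sg9 and 8.36 and 8.44 in the control. The lowest sg9 library lay more than 1 unit above the highest of the other 5, and the difference was 1.98 (SE 0.27, adjusted p = 4.15e-05). S100A6, a calcium-binding protein, was 12.58, 12.63 and 12.74 with sg3, 14.18, 14.36 and 14.41 with sg9 and 12.65 and 12.57 in the control, so sg3 and the control lay together and sg9 apart (1.67, SE 0.17, adjusted p = 3.17e-06). S100A2, of the same family, differed by 1.36. Further genes of this set were TMEM256 (1.79), RPL36 (1.59) and RPS21 (1.42) of the ribosome, and TOMM7 (1.49), a subunit of the mitochondrial import channel. PET100 (1.49), an assembly factor of cytochrome c oxidase, ATP5I (1.35), a subunit of ATP synthase, TMA7 (1.48), IFI27L2 (1.45) and the small nucleolar RNA host gene SNHG8 (1.40) completed it. Their transcripts measured 332 bases (PET100) to 766 bases (NDUFA1). All 12 remained called with the length trend out, at 0.72 (ATP5I) to 1.60 (NDUFA1).

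Cytosolic ribosomal proteins were higher with sg9 almost throughout. Of 61 tested, 57 were called higher and none lower, the median difference was 0.60 against 0.01 for all genes tested, and the median transcript was 772 bases long. RPS25, a small-subunit protein, had 11.79, 12.01 and 12.06 with sg3, 13.01, 13.37 and 13.50 with sg9 and 11.85 and 11.97 in the control. RPL9, a large-subunit protein, had 12.13, 12.24 and 12.40 with sg3, 13.35, 13.55 and 13.65 with sg9 and 12.23 and 12.22 in the control. In both genes the sg3 values were spread around the control and every sg9 value lay about 1 unit above; the differences were 1.34 (SE 0.14, adjusted p = 2.83e-06) and 1.26 (SE 0.10, adjusted p = 1.41e-07). RPLP1 of the ribosomal stalk and RPL34 differed by 1.10 and 1.06. The 4 members that were not called were RPL4 (−0.09), RPL28 (0.26), RPS4X (0.22) and RPS15 (0.25). Taking the length trend out left 33 higher, none lower and a median of 0.24. Ribosomal protein genes have many processed pseudogenes, so their reads may be divided between near-identical copies.

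The nuclear-encoded respiratory chain moved with them. Of 48 subunits tested, 40 were called higher with sg9 and none lower, with a median difference of 0.61 and a median transcript of 818 bases. COX5B, of cytochrome c oxidase, was 10.03, 9.92 and 10.08 with sg3, 11.12, 11.52 and 11.37 with sg9 and 10.34 and 10.24 in the control, a difference of 1.33 (SE 0.13, adjusted p = 2.83e-06) with no overlap. The complex I subunits NDUFA2 and NDUFB3 differed by 1.30 and 1.26. With the length trend out 25 subunits were higher, SDHA of complex II was lower (−0.22, adjusted p = 0.0292), and the median was 0.25. Each of COX5B (0.91), NDUFA2 (0.89) and NDUFB3 (0.77) was still called. None of 13 mitochondrially encoded genes is named in the table, so the other genome of the same chain is not described.

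Proteasome subunits were also higher as a group: 18 of 31 were called higher and 3 lower, with a median of 0.32 and a median transcript of 1467 bases. Without sg9 replicate 3 the count was 11 higher, and without sg9 replicate 2 none was lower. PSMD13, of the regulatory lid, was 10.62, 10.80 and 10.77 with sg3, 11.31, 11.48 and 11.80 with sg9 and 10.38 and 10.62 in the control (0.80, SE 0.12, adjusted p = 0.000115). The groups did not overlap, and the control was nearer sg3. The core subunits PSMA2, PSMA7 and PSMB3 differed by 0.74, 0.65 and 0.59. After the length trend was taken out 8 were higher and 2 lower, with a median of 0.10, and PSMB3 was no longer called (0.21, adjusted p = 0.0517).

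Among 15 genes of class I antigen presentation, 5 were called higher and 4 lower with sg9. The 3 catalytic subunits of the immunoproteasome, the form of the proteasome that cuts peptides for display, were all among the higher genes. PSMB8 was 9.72, 9.74 and 9.86 with sg3, 10.61, 10.67 and 10.84 with sg9 and 10.23 and 10.19 in the control, so the control lay between guides that did not overlap (0.93, SE 0.12, adjusted p = 2.18e-05). PSMB9 differed by 0.69 and PSMB10 by 0.63. ERAP1, the aminopeptidase that trims these peptides in the endoplasmic reticulum, was lower, at 9.96, 9.96 and 9.84 with sg3 and 9.52, 9.25 and 9.31 with sg9 (−0.56, adjusted p = 0.000531). All 4 were still called with the length trend out (PSMB8 0.68, PSMB9 0.31, PSMB10 0.41, ERAP1 −0.36). The list as a whole had 4 higher and 2 lower then. Its count of higher genes was 3 without sg3 replicate 2 or 3 or sg9 replicate 1 or 2, and its count of lower genes 2 without sg3 replicate 1 or sg9 replicate 3.

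Ribosome biogenesis did not follow the ribosomal proteins. Of 25 factors, 1 was called higher (4%) and 6 lower (24%), with a median of −0.03 and a median transcript of 2400 bases. Of all genes tested 16.6% were higher and 14.2% lower. NHP2, a small protein of the box H/ACA particles, was the higher one, at 10.50, 10.44 and 10.83 with sg3 and 11.31, 11.77 and 11.62 with sg9 (0.98, adjusted p = 7.61e-05). UTP20, a large scaffold of the small-subunit processome, was 10.43, 10.74 and 10.51 with sg3, 9.61, 9.85 and 9.88 with sg9 and 9.61 and 9.54 in the control (−0.78, adjusted p = 8.23e-05). Here sg9 lay near the control and sg3 above. Nucleolin (NCL) and RRP12 differed by −0.44 and −0.44. NHP2 (0.58), UTP20 (−0.46), NCL (−0.30) and RRP12 (−0.28) were called with the length trend out, when the list had 2 higher and 3 lower. Of all genes 13.6% were higher and 10.8% lower then, so the list's share of lower members was near that of all genes. Without sg3 replicate 2, 3 factors were lower.

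The genes lowest with sg9 relative to sg3 coded mostly for large proteins of the cell surface and matrix. CRIM1, a transmembrane protein that binds growth factors of the BMP family, was 12.13, 12.08 and 11.95 with sg3, 10.78, 11.01 and 10.90 with sg9 and 11.23 and 11.07 in the control. Its sg3 values lay above both control values and its sg9 values below them (−1.16, SE 0.10, adjusted p = 5.1e-07). VCAN, a large proteoglycan, was 13.91, 13.87 and 13.61 with sg3, 12.80, 12.82 and 12.50 with sg9 and 13.68 and 13.46 in the control (−1.09, SE 0.19, adjusted p = 0.00028); there the control lay with sg3. HSPG2, the basement membrane proteoglycan perlecan, was 13.10, 13.02 and 13.08 with sg3, 11.996, 12.19 and 11.76 with sg9 and 12.06 and 11.77 in the control (−1.08, adjusted p = 0.000194), so there it lay with sg9. The others were MAP1B, a microtubule-associated protein (−1.11), TENM2, a teneurin adhesion receptor (−1.04), and FAT1, an atypical cadherin (−1.04). MKI67, which coats mitotic chromosomes (−0.999), IGF2R, the mannose 6-phosphate receptor (−0.94), and RELN, a secreted glycoprotein (−0.92), were also among the 12, with FBN1 and THBS1 described below. All of these have transcripts of at least 5912 bases (CRIM1), and all remained called with the length trend out, at −0.93 (CRIM1) to −0.56 (RELN). The exception in length was the pseudogene ANKRD36BP1 (−0.97, 1598 bases), whose reads may be shared with its parent family.

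Matrix genes were lower as a group. Of 27 collagens, laminins and other matrix genes tested, 16 were called lower with sg9 and none higher. Their median difference was −0.36 and their median transcript 5924 bases. FN1, fibronectin, was among the most abundant mRNAs at 18.89, 18.93 and 18.60 with sg3, 17.98, 17.94 and 17.75 with sg9 and 18.76 and 18.54 in the control (−0.92, SE 0.18, adjusted p = 0.000988), with sg9 below all 5 other libraries. TNC, tenascin C, was 12.66, 12.80 and 12.73 with sg3, 11.81, 11.97 and 11.79 with sg9 and 10.99 and 10.93 in the control (−0.87, SE 0.13, adjusted p = 6.69e-05). Both guides lay above the control for TNC, sg3 by more. FBN1, fibrillin 1, differed by −1.10 (SE 0.22, adjusted p = 0.000956), and LAMC1, the laminin gamma 1 chain, by −0.82. With the length trend out 11 were lower, 1 was higher and the median was −0.23, and FN1 (−0.62), TNC (−0.62) and FBN1 (−0.80) were still called.

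**Figure D5:**
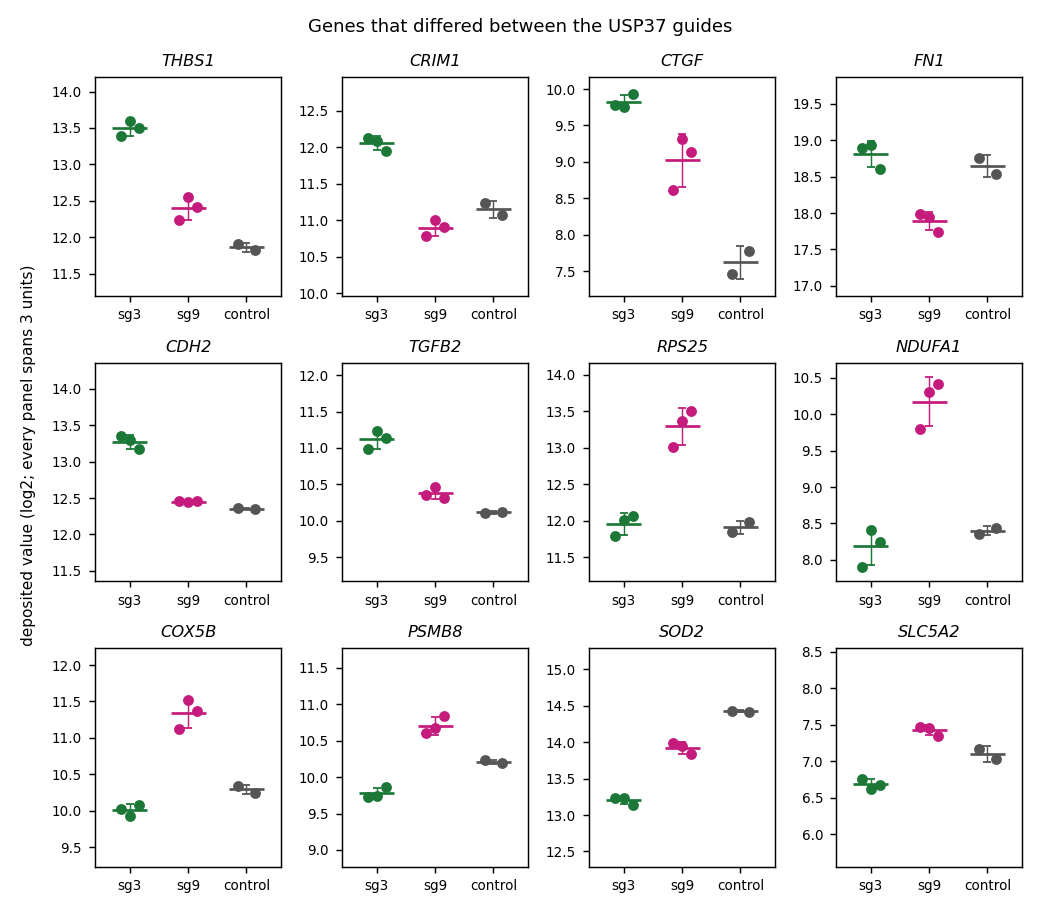
Deposited log2 values of 12 genes in the 3 sg3, 3 sg9 and 2 control libraries; points are libraries, bars the mean and whiskers the SD, and every panel spans 3 log2 units. In each panel the sg3 and sg9 points do not overlap; the control lies with sg3 for NDUFA1 and RPS25, with sg9 for CDH2, between the guides for PSMB8 and SLC5A2, and below both for THBS1 and CTGF.

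Targets of YAP and TAZ, the coactivators that bind TEAD factors and respond to cell tension and density, were lower with sg9 in 12 of 24 members and higher in 1, with a median of −0.27 and a median transcript of 3134.5 bases. CTGF, a matricellular protein and a standard readout of these coactivators, was 9.78, 9.76 and 9.93 with sg3, 8.62, 9.32 and 9.14 with sg9 and 7.46 and 7.78 in the control. Both guides lay above the control, and the highest sg9 value lay below the lowest sg3 value (−0.80, SE 0.15, adjusted p = 0.00062). At 2339 bases its transcript is of middle length, and the difference was −0.80 with the length trend out (adjusted p = 0.000304). THBS1, thrombospondin 1, was 13.39, 13.59 and 13.51 with sg3, 12.23, 12.55 and 12.42 with sg9 and 11.91 and 11.82 in the control, the same order (−1.10, SE 0.12, adjusted p = 6.58e-06; −0.80 with the trend out). ASAP1, a GTPase-activating protein, and CRIM1 above were the other members with the largest differences (−0.71 and −1.16). The mRNAs of the coactivators themselves differed little: YAP1 by 0.03 (95% interval −0.15 to 0.20) and WWTR1, which encodes TAZ, by −0.09 (95% interval −0.27 to 0.09). With the length trend out 9 members were lower and 1 higher, with a median of −0.20.

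The promoters of CTGF and THBS1 are shown because they are the members of largest difference that hold the core TEAD motif GGAATG (reverse complement CATTCC, both strands searched, the only motif searched) in the 250 bases before the RefSeq start. Motif copies are in capitals, and sequences are from RefSeq on GRCh38.p14, 5′ to 3′ on the gene's strand, THBS1 at chr15:39580829-39581078 on the plus strand and CTGF, named CCN2 there, at chr6:131951373-131951622 on the minus strand.
THBS1: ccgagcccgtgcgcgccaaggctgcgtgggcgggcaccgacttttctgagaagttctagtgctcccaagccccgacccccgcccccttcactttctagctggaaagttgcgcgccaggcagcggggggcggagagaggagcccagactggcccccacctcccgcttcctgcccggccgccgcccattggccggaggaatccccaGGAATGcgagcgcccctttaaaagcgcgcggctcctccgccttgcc
CTGF: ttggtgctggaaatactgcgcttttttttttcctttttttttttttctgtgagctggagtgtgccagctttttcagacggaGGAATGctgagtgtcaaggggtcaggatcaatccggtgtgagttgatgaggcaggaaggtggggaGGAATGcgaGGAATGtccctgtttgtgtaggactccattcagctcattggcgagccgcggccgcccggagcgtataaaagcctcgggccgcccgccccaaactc
CTGF has 3 copies and THBS1 1, the latter starting 46 bases before the start site. Of the 12 lower members 8 have a promoter in the RefSeq table, and 3 of them hold the motif, PTPN14 being the third. Of the 8 matched members that were not called lower, ANKRD1 and YAP1 hold it too, which makes 5 of 16 in all. Over all 27305 promoters the share is 11.9%. This is a description of letters in a window and says nothing of binding.

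Matrix proteases and their inhibitors gave 9 lower and 2 higher of 20 members with sg9, with a median of −0.24. MMP1, the interstitial collagenase, went the other way from the list: it was 8.66, 8.25 and 8.30 with sg3, 9.17, 9.24 and 9.42 with sg9 and 7.92 and 7.61 in the control, so both guides lay above the control and sg9 highest (0.87, SE 0.12, adjusted p = 6.05e-05). TIMP2, an inhibitor of metalloproteinases, and ADAM9, a membrane protease, differed by −0.55 and −0.53. Their transcripts run from 1970 (MMP1) to 3402 bases (TIMP2), and taking the length trend out left the list at 9 lower, 2 higher and a median of −0.25. MMP1 (0.82), TIMP2 (−0.46) and ADAM9 (−0.53) hardly moved. Without sg3 replicate 1 or sg9 replicate 2 the list still had 6 lower.

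Adhesion genes followed the matrix. Of 26 integrins and focal adhesion genes, 8 were called lower and 1 higher (median −0.20), and of 17 junction and EMT genes 5 were lower and none higher (median −0.21). CDH2, N-cadherin, was 13.36, 13.30 and 13.17 with sg3, 12.45, 12.45 and 12.45 with sg9 and 12.36 and 12.35 in the control, so sg9 lay with the control and sg3 above (−0.82, SE 0.08, adjusted p = 2.22e-06). ITGA6, the laminin-binding integrin chain, was 10.32, 10.47 and 10.20 with sg3, 9.71, 9.57 and 9.71 with sg9 and 9.80 and 9.55 in the control (−0.67, adjusted p = 0.000396), in the same order. TJP1, a tight junction scaffold, differed by −0.74, DSP, desmoplakin, by −0.64, VCL, vinculin, by −0.59, ITGB8 by −0.55 and TLN1, talin, by −0.42. With the length trend out the lists had 7 lower and 2 higher, and 4 lower and 1 higher. CDH2 (−0.69), ITGA6 (−0.56), TJP1 (−0.48), VCL (−0.36) and ITGB8 (−0.31) were called then, while DSP (−0.33, adjusted p = 0.0746) and TLN1 (−0.10, adjusted p = 0.402) were not. TLN1 was also not called without sg3 replicate 1 (adjusted p = 0.0578), sg3 replicate 2 (0.0551) or sg9 replicate 3 (0.091). Vimentin (VIM), at 16.56, 16.53 and 16.64 with sg3 and 16.35, 16.19 and 16.31 with sg9 (−0.29, adjusted p = 0.0249), was not called without sg3 replicate 1 (0.05002), sg3 replicate 3 (0.0795) or sg9 replicate 2 (0.0991). The junction list had 3 lower without sg3 replicate 1.

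Of 24 TGF-beta pathway genes, 5 were lower (20.8%) and 1 higher (4.17%), beside 14.2% and 16.6% of all genes tested. TGFB2, a ligand, was 10.98, 11.23 and 11.14 with sg3, 10.35, 10.47 and 10.31 with sg9 and 10.10 and 10.13 in the control (−0.74, SE 0.11, adjusted p = 8.23e-05; −0.55 with the length trend out), so that sg9 lay between sg3 and the control. SKI, a repressor of SMAD signalling, and SMAD6, an inhibitory SMAD, differed by −0.47 and −0.46, and neither was called with the trend out (adjusted p = 0.0705 and 0.101). SMAD6 was not called without sg3 replicate 1 (0.0757), sg3 replicate 3 (0.118) or sg9 replicate 2 (0.0984). The higher member was the divergent ligand GDF15, at 10.29, 9.92 and 9.88 with sg3 and 11.02, 10.44 and 10.14 with sg9 (0.51, adjusted p = 0.0259). Its groups overlapped, and it was not called without sg3 replicate 2 (0.0952), sg3 replicate 3 (0.0933) or sg9 replicate 1 (0.194), nor with the trend out (0.244). The list had 3 lower without sg3 replicate 2 or 3, and 3 lower and 2 higher with the trend out, where 10.8% of all genes were lower and 13.6% higher.

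Guidance genes, which code for semaphorins, ephrins, their receptors and related cues, gave 13 lower and 4 higher of 34 members with sg9 (median −0.25, median transcript 3892 bases). SEMA5A was 11.49, 11.62 and 11.28 with sg3, 10.70, 10.71 and 10.64 with sg9 and 11.08 and 11.05 in the control, which lay between the guides (−0.78, adjusted p = 0.000664). SEMA6A was 10.04, 9.69 and 9.62 with sg3, 9.48, 9.05 and 8.78 with sg9 and 10.45 and 10.39 in the control, which lay above both (−0.68, adjusted p = 0.00496). The plexins PLXNA1 and PLXNB2, receptors for semaphorins, differed by −0.65 and −0.64. With the length trend out 10 members were lower and 4 higher, and SEMA5A (−0.42), SEMA6A (−0.57), PLXNA1 (−0.33) and PLXNB2 (−0.45) were called.

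Amino acid transporters gave 6 lower and none higher of 18 members with sg9, before and after the length trend was taken out (median −0.28 and −0.19). SLC7A5, which carries large neutral amino acids, was 13.18, 12.91 and 12.89 with sg3, 12.43, 12.45 and 11.96 with sg9 and 12.81 and 12.55 in the control (−0.72, adjusted p = 0.0026). SLC38A1, a glutamine carrier, was 12.67, 12.69 and 12.47 with sg3, 11.95, 12.03 and 11.86 with sg9 and 12.78 and 12.64 in the control (−0.67, adjusted p = 0.000415); sg9 lay apart from sg3 and the control together. SLC7A1, for cationic amino acids, differed by −0.64 and SLC43A1 by −0.45, the latter not called without sg9 replicate 2 (adjusted p = 0.0593).

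Targets of HIF2A and of clear cell carcinoma were lower with sg9 in 8 of 28 members and higher in 1, with a median of −0.13. Against the control the list's medians were −0.72 with sg3 and −0.91 with sg9. MET, the receptor of hepatocyte growth factor, was 14.19, 14.24 and 14.01 with sg3, 13.49, 13.48 and 13.44 with sg9 and 13.76 and 13.62 in the control (−0.67, SE 0.12, adjusted p = 0.000374), which lay between the guides. LOXL2, a collagen crosslinking enzyme, was 13.76, 13.53 and 13.60 with sg3, 13.27, 13.08 and 12.98 with sg9 and 13.65 and 13.57 in the control (−0.52, adjusted p = 0.000241). Every sg9 value lay below the control, and the sg3 values were spread around it. DDIT4, an inhibitor of mTOR signalling and the only higher member, was 11.35, 10.86 and 10.72 with sg3, 12.12, 11.90 and 11.50 with sg9 and 13.52 and 13.26 in the control: lower than the control with both guides, and by more with sg3 (0.86, SE 0.20, adjusted p = 0.00353). The list's median transcript, 2346 bases, is close to that of all genes, and with the length trend out 8 members were lower and 2 higher. MET (−0.50), LOXL2 (−0.41) and DDIT4 (0.77) were called there. Without sg3 replicate 1 or sg9 replicate 2 the count of lower members was 5.

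Glycolysis genes and other HIF1A-preferred targets were higher in 5 of 23 members (21.7%) and lower in 2 (8.70%), near the 16.6% and 14.2% of all genes tested. PGK1, phosphoglycerate kinase, was 13.55, 13.48 and 13.50 with sg3, 13.82, 13.88 and 14.14 with sg9 and 13.63 and 13.57 in the control (0.44, adjusted p = 0.00227), and SLC16A3, the lactate exporter, 12.53, 12.58 and 12.76 with sg3, 13.03, 13.34 and 13.21 with sg9 and 12.47 and 12.46 in the control (0.57, adjusted p = 0.00979). For both genes sg3 lay with the control and sg9 above. TPI1 and PGAM1, also glycolytic enzymes, differed by 0.33 and 0.28, and neither was called with the length trend out (adjusted p = 0.0633 and 0.0888). PGAM1 was not called without sg3 replicate 1 (0.103), 2 (0.0855) or 3 (0.0956) or sg9 replicate 2 (0.0646) or 3 (0.264). PGK1 (0.55) and SLC16A3 (0.53) were 2 of the 3 higher members left then, with none lower. The list also had 3 higher without sg3 replicate 2 or 3 or sg9 replicate 2 or 3, and none lower without sg3 replicate 2 or sg9 replicate 3.

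In the machinery that regulates HIF, 2 of 14 genes were higher and 3 lower with sg9 (14.3% and 21.4%), near the 16.6% and 14.2% of all genes tested. RBX1, the RING subunit of the VHL ligase, was 9.80, 9.68 and 9.76 with sg3, 10.29, 10.66 and 10.75 with sg9 and 9.55 and 9.77 in the control (0.82, adjusted p = 0.00328). The coactivators CREBBP and EP300 were lower: CREBBP was 11.12, 11.21 and 11.12 with sg3, 10.52, 10.64 and 10.10 with sg9 and 10.49 and 10.41 in the control (−0.73, adjusted p = 0.00114), and EP300 differed by −0.65. Both lay near the control with sg9 and above it with sg3. ARNT2, a weakly expressed paralog of ARNT, differed by −0.67. All 4 were called with the length trend out (RBX1 0.59, CREBBP −0.40, EP300 −0.32, ARNT2 −0.49), when the list had 3 higher and 3 lower. The count of higher genes was 1 without sg3 replicate 1 or sg9 replicate 3 and 3 without sg3 replicate 3.

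Of 9 genes whose proteins have been reported as USP37 substrates, 3 were lower with sg9 and none higher. BLM, a DNA helicase, was 8.83, 8.90 and 8.76 with sg3, 8.34, 7.98 and 8.15 with sg9 and 8.85 and 8.56 in the control (−0.67, adjusted p = 0.000177; −0.50 with the length trend out). WAPL, which releases cohesin, differed by −0.37 and was called neither with the trend out (adjusted p = 0.229) nor without sg3 replicate 1 (0.0571). CHEK1, a checkpoint kinase, differed by −0.27 and was not called without sg3 replicate 2 (adjusted p = 0.118) or sg9 replicate 1 (0.101). The best known of these substrates differed by 0.01 for cyclin A (CCNA2, 95% interval −0.19 to 0.21), −0.25 for MYC (95% interval −0.44 to −0.05) and −0.29 for the licensing factor CDT1 (95% interval −0.54 to −0.05). None of these was called. The intervals of MYC and CDT1 exclude 0, but they are not adjusted for the number of genes tested. With the trend out 4 of the 9 were lower and none higher. A change in a substrate's protein would not show in these mRNA values.

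Mitotic genes split by member. Of 28, 8 were lower (28.6%) and 4 higher (14.3%) with sg9, with a median of −0.15. Of all genes tested 14.2% were lower and 16.6% higher, so the share of higher members was near that of all genes. BIRC5, survivin, was 11.37, 11.44 and 11.66 with sg3, 11.95, 12.20 and 12.27 with sg9 and 11.19 and 11.33 in the control (0.65, SE 0.11, adjusted p = 0.000241), with sg9 above all other libraries. ASPM, a spindle pole protein, was 11.57, 11.59 and 11.35 with sg3, 10.78, 10.92 and 10.57 with sg9 and 11.71 and 11.73 in the control (−0.75, adjusted p = 0.00126), with sg9 below them. The centromere proteins CENPF and CENPE differed by −0.68 and −0.68. ASPM, CENPF and CENPE have transcripts of 6132, 5417.5 and 8260 bases and BIRC5 of 2446, and with the length trend out the differences were −0.51, −0.47, −0.37 and 0.66, each still called. The list had 6 lower and 4 higher then, and 2 higher without sg9 replicate 3.

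DNA replication genes gave few calls, 3 higher (8.33%) and 5 lower (13.9%) of 36, with a median of 0.01. Of all genes tested 16.6% were higher and 14.2% lower. ORC1, the largest subunit of the origin recognition complex, was 9.76, 9.63 and 9.55 with sg3 and 8.86, 9.17 and 9.28 with sg9 (−0.54, adjusted p = 0.00157; −0.47 with the length trend out). POLE, a replicative polymerase, differed by −0.39 and was not called without sg9 replicate 3 (adjusted p = 0.0542) or with the trend out (0.309). RFC4, of the clamp loader, differed by 0.44 and was not called without sg3 replicate 1 (0.11), sg3 replicate 2 (0.0736), sg9 replicate 2 (0.086) or sg9 replicate 3 (0.0676), nor with the trend out (0.105). GINS2, of the replicative helicase, differed by 0.38 and was not called without sg3 replicate 1 (0.0852) or 2 (0.128) or sg9 replicate 2 (0.0833) or 3 (0.173). Without sg9 replicate 3 no member was called higher, and with any other guide library left out 3 were called lower. With the trend out 3 were higher and 2 lower.

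Genes of the p53 response were higher in 6 of 25 (24.0%) and lower in none, with a median of 0.12. Of all genes tested 16.6% were higher and 14.2% lower. PHLDA3, an inhibitor of AKT, was 9.05, 9.22 and 9.55 with sg3, 9.73, 9.87 and 9.78 with sg9 and 9.21 and 9.11 in the control (0.52, adjusted p = 0.00308; 0.43 with the length trend out). BAX, an effector of apoptosis, differed by 0.59, and was called neither with the trend out (adjusted p = 0.531) nor without sg3 replicate 1 (0.0668), 2 (0.0762) or 3 (0.0685) or sg9 replicate 2 (0.07) or 3 (0.114). TRIAP1, a small mitochondrial protein, differed by 0.54, and was called neither with the trend out (0.112) nor without sg3 replicate 2 (0.106) or sg9 replicate 3 (0.189). GDF15 above was the fourth. Without sg3 replicate 2 the list had 2 higher members, and with the trend out 4, where 13.6% of all genes were higher.

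NF-kB targets and inflammatory genes were higher in 8 of 25 and lower in none, with a median of 0.14 and a median transcript of 1924 bases. SOD2, mitochondrial superoxide dismutase, was 13.23, 13.23 and 13.14 with sg3, 13.99, 13.95 and 13.83 with sg9 and 14.43 and 14.41 in the control: below the control with both guides and by more with sg3 (0.73, SE 0.09, adjusted p = 2.31e-05). CXCL8, a neutrophil-attracting chemokine, was 12.32, 12.43 and 12.29 with sg3, 12.78, 13.04 and 13.16 with sg9 and 12.15 and 12.12 in the control (0.65, adjusted p = 5.19e-05). NFKBIE, an inhibitor of NF-kB, differed by 0.61 (2581 bases; 0.63 with the length trend out). CSF2, a cytokine, differed by 0.51, and was called neither with the trend out (adjusted p = 0.5) nor without sg3 replicate 1 (0.135) or sg9 replicate 2 (0.0986) or 3 (0.0982). SOD2 (0.43) and CXCL8 (0.42) were called with the trend out, when 6 members were higher and 3 lower. Without sg3 replicate 1 or sg9 replicate 2 the count of higher members was 5, and without sg9 replicate 1 there were 3 lower.

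NRF2 targets were higher in 7 of 22 and lower in none, with a median of 0.14. AKR1C3, an aldo-keto reductase, was 7.70, 7.44 and 7.39 with sg3, 8.51, 8.00 and 8.33 with sg9 and 9.60 and 9.52 in the control (0.77, adjusted p = 0.000253), far below the control with both. Its near-identical paralogs may share reads with it. HMOX1, haem oxygenase 1, was 9.92, 9.76 and 10.02 with sg3, 10.40, 10.44 and 10.42 with sg9 and 9.69 and 9.70 in the control (0.52, adjusted p = 0.000307). FTH1, ferritin heavy chain, differed by 0.41 and NQO1, a quinone reductase, by 0.38, and neither was called with the length trend out (0.03, adjusted p = 0.878; 0.09, adjusted p = 0.365). The list then had 4 higher and 1 lower, and 4 higher without sg3 replicate 2.

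Interferon-response genes were higher in 5 of 31 and lower in 2, a share of higher genes (16.1%) close to the 16.6% of all genes tested. IFI6 was 9.75, 9.87 and 10.04 with sg3, 10.38, 10.98 and 10.94 with sg9 and 8.28 and 8.00 in the control (0.88, adjusted p = 0.00112), above the control with both guides. IFI35 differed by 0.53 and OAS3, a double-stranded RNA sensor, by −0.50. IFI6 (0.52), IFI35 (0.31) and OAS3 (−0.68) were called with the length trend out. EPSTI1, a weakly expressed gene, differed by 0.52 and was not called without sg3 replicate 2 (adjusted p = 0.131) or sg9 replicate 3 (0.0806), nor in a fit of the 6 guide libraries alone (0.0503). The list had 5 higher and 3 lower with the trend out, and 3 higher without sg9 replicate 3. Immediate early genes and ERK feedback were called in 3 of 23, with 8.70% higher and 4.35% lower, below the 16.6% and 14.2% of all genes. JUND (0.35) and JUNB (0.31), both AP-1 subunits, were higher and SPRED2 (−0.32), an inhibitor of ERK signalling, lower. JUND was not called without sg3 replicate 1 (0.0585) or 2 (0.127) or sg9 replicate 1 (0.112) or 2 (0.0663), and JUNB not without the same libraries (0.0677, 0.106, 0.116 and 0.0669). Neither was called with the length trend out (0.0838 and 0.0853), although the list then had more calls, 4 higher and 3 lower. It had 3 higher without sg3 replicate 3 and 3 lower without sg9 replicate 1.

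Stress genes of the endoplasmic reticulum and of amino acid shortage gave 4 higher and 5 lower of 26 (15.4% and 19.2%), near the 16.6% and 14.2% of all genes tested. CEBPB, a transcription factor, was 10.08, 9.97 and 10.08 with sg3, 11.00, 10.93 and 10.64 with sg9 and 10.88 and 10.81 in the control, so sg9 lay with the control and sg3 below (0.81, SE 0.09, adjusted p = 7.41e-06; 0.75 with the length trend out). HSP90B1, the chaperone GRP94, was 14.09, 13.92 and 13.87 with sg3, 13.66, 13.38 and 13.46 with sg9 and 14.57 and 14.57 in the control, below the control with both (−0.46, adjusted p = 0.00087; −0.64 with the trend out). VLDLR, a lipoprotein receptor, differed by −0.49 and was not called with the trend out (0.0527). SDF2L1, of the endoplasmic reticulum lumen, differed by 0.58 and was called neither then (0.183) nor without sg3 replicate 2 (0.0626) or sg9 replicate 3 (0.0667). The list had 1 higher member without sg9 replicate 3, and 2 higher and 2 lower with the trend out.

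Cholesterol synthesis was higher with sg9 in 12 of 25 genes and lower in 3, with a median of 0.28 and a median transcript of 2420 bases. ACAT2, which joins the first acetyl units, was 10.81, 10.86 and 10.84 with sg3, 11.31, 11.27 and 11.65 with sg9 and 10.99 and 11.02 in the control (0.58, SE 0.10, adjusted p = 0.000423), with sg9 above all other libraries. MVD and PMVK, enzymes of the mevalonate branch, differed by 0.48 and 0.44. The count moved with the setting: 5 were higher with the length trend out, 5 without sg3 replicate 2, and 8 at the most with any guide library left out, without sg9 replicate 1. With the trend out the median was 0.20, and ACAT2 (0.65) and MVD (0.40) were called while PMVK was not (adjusted p = 0.115). PMVK was not called without sg9 replicate 2 either (0.0548).

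Fatty acid synthesis and storage gave 4 higher and 4 lower of 24 (16.7% each), near the 16.6% and 14.2% of all genes tested. G0S2, an inhibitor of triglyceride breakdown, was 10.65, 10.65 and 11.00 with sg3, 11.54, 11.55 and 11.45 with sg9 and 9.46 and 9.56 in the control, above the control with both (0.75, adjusted p = 0.000248). AGPAT2, an acyltransferase, was 10.38, 10.15 and 10.53 with sg3, 10.95, 10.75 and 10.88 with sg9 and 10.83 and 10.73 in the control (0.50, adjusted p = 0.00316). FASN, fatty acid synthase, differed by −0.49 and ACACA, which makes malonyl-CoA, by −0.46, and neither was called with the length trend out (adjusted p = 0.174 and 0.228). ACACA was not called without sg3 replicate 1 (0.0512), sg3 replicate 2 (0.0563) or sg9 replicate 3 (0.0817). The list had 2 higher without sg3 replicate 2 or sg9 replicate 1 or 3, 2 lower without sg3 replicate 1 or 2 or sg9 replicate 3, and 2 higher and 1 lower with the trend out.

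Renal tubule genes were higher in 2 of 20 (10.0%) and lower in 5 (25.0%), before and after the length trend was taken out. Of all genes 16.6% were higher and 14.2% lower before, and 13.6% and 10.8% after. SLC5A2, the glucose transporter of the proximal tubule, was 6.76, 6.62 and 6.67 with sg3, 7.47, 7.46 and 7.35 with sg9 and 7.17 and 7.03 in the control, which lay between guides that did not overlap (0.74, SE 0.11, adjusted p = 8.23e-05). At 2271 bases it had 0.73 with the trend out. FXYD2, a regulator of the sodium pump, was 8.06, 7.05 and 7.70 with sg3, 8.67, 8.56 and 8.31 with sg9 and 10.73 and 10.45 in the control (0.91, adjusted p = 0.00307). It lay far below the control with both guides, was not called with the trend out (adjusted p = 0.0798), and may share reads with a readthrough transcript of its neighbour. ANPEP, a brush border peptidase, differed by −0.49. The list had 3 lower without sg3 replicate 1 or sg9 replicate 2 or 3.

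Markers of the line were present in all 8 libraries. The mean of 7 markers, among them PAX8, PAX2, CDH6, VIM, KRT8 and KRT18, was 12.4 in every sg3 library, 12.2 to 12.4 with sg9 and 12.2 in the control. Of these 6, VIM above was lower with sg9 and the others were not called. Of 12 markers of 293T packaging cells 4 passed the filter on low values (NEFL, SOX2, PRAME and ZIC2) and none was called, the mean over the 12 was 6.31 to 6.46 with sg3, 6.31 to 6.39 with sg9 and 6.49 to 6.54 in the control, and DPPA4 stood at the floor value of 5.14 throughout. Of 12 leukocyte markers CD68 alone was tested and was not called. The mean over the 12 was 5.61 to 5.71 with sg3, 5.61 to 5.68 with sg9 and 5.62 to 5.83 in the control. PTPRC and CD3E stood at the floor in both guide groups and averaged 5.96 and 6.01 in the control.

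For 33 genes the guides moved in opposite directions from the control, each past the threshold, 17 higher and 16 lower with sg9 than with sg3. The 2 contrasts share the 2 control libraries, and the difference between the guides is tested directly here. As a yardstick for a pair of guides against 1 gene, HIF2a sg6 and sg4, which share no library with the USP37 guides, differed in 1151 genes (9.22%), 607 (4.86%) higher and 544 (4.36%) lower with sg6. That count was 500 without sg4 replicate 2, 612 without sg4 replicate 3 and at the most 1593, without sg6 replicate 2. Unlike the USP37 guides, the HIF2a guides differed in the mRNA of their target. EPAS1 was higher by 0.81 with sg6 than with sg4 (adjusted p = 0.000154), so the pairs are not matched in that respect. Genes called in both pairs numbered 344, which is 8.94% of those of the USP37 pair and 29.9% of those of the HIF2a pair. These shares were near those of all genes tested, 9.22% called in the HIF2a pair and 30.8% in the USP37 pair. The correlation of the difference with length was 0.13 in the HIF2a pair, the reverse of the −0.55 of the USP37 pair.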

How the data were processed

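RNA-seq of 786-O cells was analysed from a single deposited table of 27315 genes, named by symbol, in 17 libraries. Its values are batch-corrected, variance-stabilised and on a log2 scale, as the authors deposited them. The build is hg19 and the tools listed are cutadapt, STAR 2.5.2b, Salmon and DESeq2, per the submitters' processing notes, which give no roles. Which annotation was counted, what was treated as batch and how it was corrected is not given in the sources used here. In the values, the means over libraries of each replicate number are equal for every gene to within 3.73e-14, so a term for that number has been taken out. It cancels in a difference between sg9 and sg3, which both have libraries 1 to 3. Against the control, which has libraries 2 and 3 only, and with a guide library left out, it does not cancel. Values relative to the control and leave-out counts may carry part of it. The fit does not count this term, so p-values tend to be too small. Values reach down to a floor near 5.14, and 8023 genes hold a single value throughout. Read counts could not be recovered, the depth per library is unknown, and the number of libraries limits the precision. The median standard error of a difference was 0.12.

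The samples were grouped by the guide in their labels. Genes whose mean over the 17 libraries was at least 1 above the 1st percentile of gene means were tested (12484 genes). The 6 group means were fitted with limma 3.58.1 in R 4.3.3 (empirical Bayes, variance trended on the mean, residual degrees of freedom 11), contrasts were adjusted by Benjamini-Hochberg over all genes tested, and a gene was called at an adjusted p under 0.05. Adjusted p-values are from this test, or from the same limma test under the alternative named beside the value. With 3 libraries against 3, an exact permutation test of a single gene cannot go below 0.1. Transcript length is the median over the basic transcripts of a symbol in GENCODE v29, found for 98.2% of tested genes. It was used for lengths only, with no coordinates. As an alternative added after the data had been seen, a smooth trend of each library's deviations on log2 length was taken out with mgcv 1.9.3, and in a further one also a trend on GC content. The steps were run on simulated data with independent noise for each gene and a straight-line length trend. Those data lacked the replicate term taken out of the deposited values, so they do not check how far the p-values are too small. Other alternatives were the replicate number in the fit, other sets of libraries, other filters, no variance trend, library weights, centring, and each library left out in turn.

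The comparison, the 31 gene lists and the naming rule were chosen with earlier results of these data known. Lists are described by counts and medians, with no set test. The named genes are USP37 and 8 HIF pathway genes, the 12 largest differences in each direction among called genes whose groups do not overlap, up to 4 called members of each list with the largest differences, and the 4 largest in each direction among genes that the guides moved in opposite directions from the control. Genes named outside this rule, among them CCNA2, MYC, CDT1, YAP1, WWTR1, PTPN14, SDHA and the ribosomal proteins that were not called, were named after their values were seen. Some members of the lists are not reported here by name. Libraries were unstranded, so reads of overlapping genes cannot be told apart.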

Additional observations from a re-analysis of the deposited data

Results flagged for a closer look

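The 8 genes here had the 4 largest differences between the guides in each direction among those that sg3 and sg9 moved in opposite directions from the control, each past the threshold. The contrasts against the control share its 2 libraries, so the test is that of sg9 minus sg3. NDUFA13, a complex I subunit, differed by 1.17 (adjusted p = 1.82e-05), from −0.46 with sg3 to 0.70 with sg9 relative to the control. ZNF428, a zinc finger gene, differed by 1.11 (−0.55 and 0.57), and RPA3, the small subunit of replication protein A, by 1.06 (−0.59 and 0.47). HES6, a basic helix-loop-helix factor, differed by 1.03 (−0.51 and 0.52). In the other direction TMEM131, which takes part in collagen secretion, differed by −0.90 (0.50 with sg3 and −0.39 with sg9), and LAMC1, the laminin gamma 1 chain, by −0.82 (0.47 and −0.35). CRLS1, cardiolipin synthase, differed by −0.81 (0.34 and −0.47; adjusted p = 2.83e-06) and ATRN, attractin, by −0.77 (0.37 and −0.40). In each of the 8 the 3 sg9 values and the 3 sg3 values lay on either side of both control values.

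The higher genes have short and the lower genes long transcripts, as in the whole comparison. With the length trend taken out all 8 were still called, at 0.81 for NDUFA13, 0.94 for ZNF428, 0.61 for RPA3 and 0.76 for HES6, and at −0.64 for TMEM131, −0.52 for LAMC1, −0.69 for CRLS1 and −0.53 for ATRN.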

How the results depend on the processing

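The total of 3848 called genes was 2739 to 3488 with any guide library left out, 2982 with the length trend taken out and 3139 with a GC trend out as well. Whether the replicate numbers pair the libraries cannot be told from these values: same-numbered guide libraries correlated at −0.07, −0.15 and −0.13, but the authors' values already have a term for that number taken out, which pushes such correlations below 0. The labels name no shared culture or day, so the fit has no block. With the replicate number as a block, 3265 genes were called. Under that block PGAM1 (adjusted p = 0.0676), CHEK1 (0.0526) and GINS2 (0.0591) were not called, and 7 cholesterol genes were higher in place of 12. It ended no other call of a named gene. Genes differing by at least 1 numbered 24 in place of 99 with the length trend out and 24 with both trends out. Higher genes under 700 bases fell from 199 to 100 and 101, and lower genes over 6000 bases from 450 to 153 and 155, which the construction of that step brings about. The latter count was 282 to 407 with a guide library left out. The HIF2a pair had 573 called genes with library weights and 500 to 1593 with a library left out.

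Some differences of HIF pathway genes that were not called changed sign, HIF1AN from −0.14 as deposited. EPAS1 became 0.0935 with the length trend out (adjusted p = 0.520) and 0.11 with both out (0.427), EGLN1 0.16 and 0.18, HIF1AN 0.24 and 0.27, EGLN3 0.0277 and 0.0680, and ARNT 0.00102 with both out. With a guide library left out EGLN3 ran from −0.21 to 0.21 and HIF1A from −0.0072 to 0.10. Of 135 called named genes none changed sign, and 111 were still called with the length trend out, 115 with both out and 122 to 131 with a guide library left out. The unknown depth, the 2 control libraries and the possibly technical replicates limit all of these values.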

Other observations

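By chromosome, the median difference sg9 minus sg3 ran from −0.07 over 207 genes of chromosome 13 to 0.11 over 854 genes of chromosome 19. The order followed transcript length in part: the median transcript was 3341.5 bases on chromosome 13 and 2185.75 bases on chromosome 19, and with the length trend out the medians were 0.01 and 0.07. On chromosome 2, which carries USP37, the median over 846 genes was 0.00.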
